A study of Mus musculus with 12 samples.

Results

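The genes described here encode the machinery that copies DNA in S phase. The set was chosen by name and holds 41 genes, all 41 of them rows of both deposited count tables, which shared 37931 gene names. By role, 6 genes encode the ring of the MCM helicase (Mcm2, Mcm3, Mcm4, Mcm5, Mcm6 and Mcm7). Another 6 encode helicase partners (Cdc45, Gins1, Gins2, Gins3, Gins4 and Mcm10) and 6 encode the origin recognition complex (Orc1 to Orc6). Licensing factors and their inhibitor are represented by Cdc6, Cdt1 and Gmnn. The sliding clamp is Pcna and its loader is built from Rfc1 to Rfc5. The primase subunits Prim1 and Prim2 stand with the single-strand binding subunits Rpa1, Rpa2 and Rpa3. Fen1 and Lig1 process and join Okazaki fragments, and Rrm1, Rrm2, Tyms and Tk1 supply deoxynucleotides. Chaf1a, Chaf1b and Uhrf1 restore nucleosomes and DNA methylation behind the fork.

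Replication is prepared in G1, when the origin recognition complex, Cdc6 and Cdt1 load MCM rings onto origins, a step called licensing that geminin (Gmnn) blocks once S phase has begun. In S phase Cdc45 and the GINS complex turn the MCM ring into an active helicase, and the clamp, its loader, primase, RPA and the ligase follow at the fork. Many of these genes are transcribed under E2F factors as cells commit to division, so their RNA is commonly low in quiescent cells. Hair follicle stem cells are known for long quiescence in the resting phase of the hair cycle and for brief division as a new growth phase starts.

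The study sequenced oligo(dT)-selected RNA from mouse hair follicle stem cells, isolated from back skin by sorting for H2BGFP(+), Sca-1(-), CD34(+) and CD49f(+), to ask how loss of the forkhead factor Foxc1 affects them. Knockout (KO) mice had the genotype K14-H2BGFP, K14Cre, Foxc1 fl/fl, and the wild-type (WT) controls had K14-H2BGFP, Foxc1 fl/fl, so both genotypes carried the floxed alleles and the green histone reporter and differed in Cre. The K14 promoter that drives Cre and the reporter is active in basal keratinocytes of skin as a whole, so the deletion was not limited to stem cells. In anagen, the growth phase, there were 2 KO libraries (titled P29 and P31) and 3 WT libraries (P29, P30 and P31). Early telogen, the resting phase, had 4 KO libraries, numbered 1, 2, 3 and 5, and 3 from WT, numbered 1, 3 and 4, all labelled as postnatal day 47. Anagen WT P31 carried an age label of 43 days, and early telogen KO replicate 5 was titled P43 but labelled 47 days. The labels do not name the mouse behind each library. Anagen libraries of a genotype differ in titled day, and early telogen headers mark female and male libraries within each genotype. Samples that differ in day or sex are not repeats of the same mouse. WT replicates 1 and 3, and KO replicates 1 and 3, share day and sex and may be technical repeats. P-values measure only the spread between these samples.

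Promoter sequences for 34 of the 41 genes were found in RefSeq (build GRCm38.p6), as windows of 300 bases around the gene start. They were searched on both strands for 4 words of the E2F consensus (TTTCCCGC, TTTCGCGC, TTTGCCGC and TTTGGCGC), for CCAAT and for TTTGAA, the word of the cell cycle homology region (CHR). An E2F word was present in 12 of the 34 windows (35.3%), against 4.68% of the genes tested in early telogen and 2.6% of all genes with a window. CCAAT was present in 67.6% of the 34 and in 42.7% of genes tested in early telogen, and TTTGAA in 11.8% and 14%. The sites below, from 8 genes of 6 roles, show the shared word in its 30-base context, read 5′ to 3′ along the gene's strand, with the word or its reverse complement in capitals. A match describes the letters only.
Mcm5, chr8:75109345-75109374, plus strand: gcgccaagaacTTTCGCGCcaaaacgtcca
Mcm6, chr1:128359797-128359826, minus strand: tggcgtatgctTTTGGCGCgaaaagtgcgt
Mcm7, chr5:138172030-138172059, minus strand: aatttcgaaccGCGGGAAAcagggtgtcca
Gins3, chr8:95633507-95633536, plus strand: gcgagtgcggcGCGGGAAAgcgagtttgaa
Orc1, chr4:108579416-108579445, plus strand: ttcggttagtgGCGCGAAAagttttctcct
Cdc6, chr11:98908002-98908031, plus strand: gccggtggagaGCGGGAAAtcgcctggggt
Rfc3, chr5:151651200-151651229, minus strand: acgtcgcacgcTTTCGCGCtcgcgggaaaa
Uhrf1, chr17:56304117-56304146, plus strand: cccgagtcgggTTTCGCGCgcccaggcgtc
Within the Mcm5 and Mcm6 sites above, a second word on the opposite strand overlapped the first. The Rfc3 site also holds a second word, in lower case near its 3′ end, that begins at the gene start.

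Sequencing depth over gene rows was 29025553 to 54482469 counts per anagen library. In early telogen it was 2662083 to 11821916, lowest in KO replicate 5, and across the study 0.0658% to 0.127% of them fell on the 41 genes. In anagen no gene of the set had fewer than 20 counts in any library, while in early telogen 2 to 11 genes did (11 each in KO replicate 5 and WT replicate 4). Foxc1, the deleted gene, was at 34.6 to 115.9 CPM in anagen WT and 0.206 and 0.276 CPM in KO, and at 43.8 to 61.2 CPM in early telogen WT and 0.910 to 3.11 CPM in KO, with no overlap between the genotypes at either stage. The 10 stem cell markers summed to 21842 to 36126 CPM in the 12 libraries, mostly from Krt5 and Krt14. Shh, which marks growing follicle epithelium, was at 0 in 6 of the 7 early telogen libraries and low in anagen too, at 0.064 to 1.65 CPM. It is 1 of 7 hair germ and matrix markers, and the others were present in every early telogen library. Among them Cdh3 was at 76.6 to 163 CPM and Lef1 at 3.80 to 12.8 CPM. The 7 markers summed to 254 to 596 CPM in anagen and 153 to 267 CPM in early telogen. Early telogen KO replicate 2 and WT replicate 3 stood apart in summed markers of other cells, which came mostly from Krt10 and the collagen genes. The summed level of 5 epidermal genes was 4797 CPM in KO replicate 2 and 730 to 1145 CPM in the other KO libraries, and 125 CPM in WT replicate 3 against 946 and 1933 CPM in the other WT libraries. For 6 fibroblast genes the sums were 4975 CPM in KO replicate 2, 463 to 1500 CPM in the other KO libraries, 253 CPM in WT replicate 3 and 838 and 1505 CPM in the other WT libraries, and none of these marker genes was at 0 in any library. Not every gene of these lists followed the sums. The epidermal gene Lor was at 62.9 CPM in KO replicate 2 and at 96.9 to 170 CPM in the other KO libraries. Ivl lay within the range of the other libraries of the genotype for both. The fibroblast gene Pdgfra was at 9.83 CPM in WT replicate 3 and at 3.21 and 1.96 CPM in the other WT libraries. The part of epidermal cells and fibroblasts in the results below was not tested, and the main counts are also given without both libraries.

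In early telogen, replication genes were mostly higher in KO than in WT stem cells, and Mcm5 was the only one that passed the test. Levels are CPM, counts scaled to the library's gene total. Tests are edgeR quasi-likelihood F-tests on the counts, adjusted by Benjamini-Hochberg over all genes tested and passed at an adjusted p under 0.05, with log2 fold changes as estimate ± SE. Of the 41 genes 1 rose and none fell, where 0.499% of 12030 genes tested rose and 0.457% fell. At an unadjusted p under 0.05, 16 of the 41 were higher and none lower, against 6.46% and 5.58% of all genes. The KO and WT libraries did not overlap, with KO higher, for 15 of the 41 (9.75% of all genes), and for none with KO lower (3.37%). The estimate was above 0 for 35 of the 41 (53.7% of all genes), and the median log2 fold change was 0.55, against 0.03 over all genes tested. In bulk RNA, more dividing cells and more RNA per dividing cell cannot be told apart. The proliferation marker Mki67 was at 8.57, 5.65 and 8.48 CPM in WT and 46.4, 48.6, 47.9 and 49.96 CPM in KO (log2 fold change 2.52 ± 0.22, edgeR adjusted p = 9.65e-05). Some markers of cell identity also separated the genotypes, and their part in the result was not tested. The melanocyte gene Dct was at 2.05, 2.32 and 1.305 CPM in WT and at 17.8, 8.35, 7.58 and 10.1 CPM in KO, and rose (2.34 ± 0.43, edgeR adjusted p = 0.0274). Of 6 melanocyte markers 4 were tested. Dct, Tyr and Tyrp1 had every KO library above every WT library, while Mitf had every KO library below. Tyr was at 0 in 2 WT libraries and Mlana in all 3 and in 1 KO library. The 5 markers present in both tables summed to 80.4 to 136 CPM in WT, mostly Mitf, and to 70.4 to 105 CPM in KO. Among 10 stem cell markers the gate marker Cd34 fell (-1.199 ± 0.21, edgeR adjusted p = 0.0212) and none rose.

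Scaling by library totals without the TMM normalization moved the median of all genes from 0.03 to 0.21 on the log2 scale. It changed the number of all genes that rose and fell from 60 and 55 to 95 and 46. Under it the estimate was above 0 for 40 of the 41 replication genes, with Gins3, Orc2, Orc4, Cdc6 and Pcna turning from slightly negative to slightly positive, and their median was 0.75. Without KO replicate 2 and WT replicate 3 the median was 0.40 and 36 of the 41 estimates were above 0. In that fit 9 of the 41 were higher at an unadjusted p under 0.05 (4.37% of all genes) and none lower (3.41%). The remaining libraries did not overlap, with KO higher, for 16 of the 41 (14.1% of all genes) and with KO lower for none (8.67%).

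In the MCM ring 5 of 6 genes (all but Mcm7) had an unadjusted p under 0.05, and 5 (all but Mcm3) had KO libraries above all WT libraries. In the order used throughout for early telogen (WT replicates 1, 3 and 4, then KO replicates 1, 2, 3 and 5), Mcm5 was at 8.66, 6.12 and 8.32 CPM in WT and at 17.2, 28.1, 20.1 and 17.3 CPM in KO. Every KO library lay above every WT library, with means of 7.70 ± 1.38 (SD, n = 3) and 20.7 ± 5.13 CPM (SD, n = 4). The log2 fold change was 1.25 ± 0.25, or 2.38-fold (edgeR adjusted p = 0.0332). Mcm5 (ENSMUSG00000005410.6) lies on the plus strand of chromosome 8 from 75109569 to 75128439 in GRCm38, downstream of the E2F word shown above. The estimate stayed above 1 in every alternative fit, but the call depended on all 7 libraries. Leaving out any one of them gave an adjusted p between 0.054 and 0.182, highest without WT replicate 3.

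Mcm2 was at 4.20, 5.01 and 6.69 CPM in WT and at 12.4, 28.2, 9.30 and 15.0 CPM in KO, again with no overlap. Its log2 fold change of 1.41 ± 0.35 was the largest in the ring and did not pass (adjusted p = 0.0924 by edgeR). DESeq2 called Mcm2, Mcm5, Gins2 and Mcm10, the only replication genes it called, where 233 of all genes rose and 190 fell. Mcm4 was at 16.4, 18.4 and 20.6 CPM in WT and at 30.2, 46.8, 23.6 and 28.9 CPM in KO (0.62 ± 0.22, edgeR adjusted p = 0.249). Mcm3 and Mcm6 had estimates of 1.18 ± 0.45 and 0.71 ± 0.24, both short of the threshold. Mcm7 was nearly level, with 23.3 to 24.3 CPM in WT and 25.0 to 37.5 CPM in KO (0.14 ± 0.19).

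**Figure D1:**
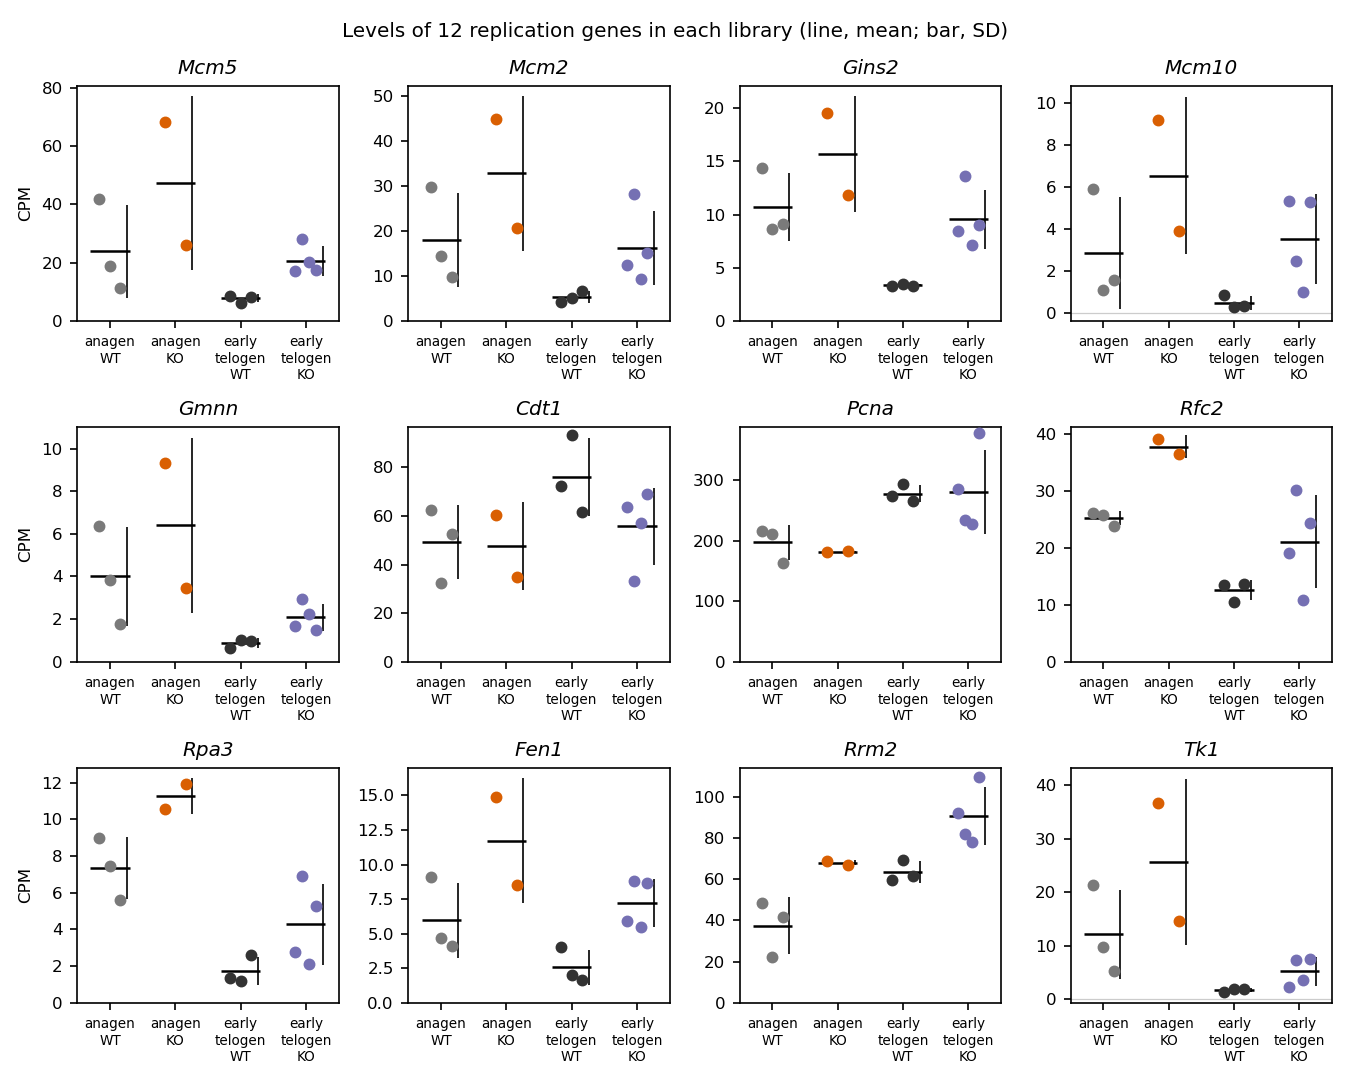
Levels of 12 replication genes in CPM (y axes, linear, each with its own range), with 1 point per library, a line for the group mean and a bar for the SD (n = 3 anagen WT, 2 anagen KO, 3 early telogen WT and 4 early telogen KO). Mcm5, Mcm2 and Gins2 show early telogen KO points above all early telogen WT points, while Pcna and Cdt1 overlap between the genotypes.

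Because the 6 subunits act as one ring, their proportions were compared as shares of the summed CPM per kilobase of exon. In early telogen WT Mcm2 held 4.40% ± 1.004 (SD, n = 3) of the ring's RNA and Mcm7 held 31.2% ± 2.14. In KO the shares were 6.99% ± 1.86 (SD, n = 4) for Mcm2 and 21.4% ± 1.37 for Mcm7. Mcm7 shares did not overlap between the genotypes, while those of Mcm2 touched (3.30% to 5.28% in WT and 5.06% to 9.50% in KO). Mcm5 held 11.04% ± 1.09 in WT and 16.3% ± 2.13 in KO. In anagen the shares of Mcm2 and Mcm5 were higher than in early telogen WT (8.16% and 18.4% in anagen WT), and that of Mcm7 was 24.5%. These shares are a description, and no test was run on them.

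Among helicase partners Gins2, a GINS subunit, had the steadiest WT levels, at 3.30, 3.43 and 3.26 CPM, and 8.46, 13.6, 7.18 and 9.02 CPM in KO. It lies on the minus strand of chromosome 8 from 120578633 to 120589304. The groups did not overlap, and the log2 fold change was 1.32 ± 0.34 (edgeR adjusted p = 0.0925). Mcm10, which helps to start unwinding, was at 0.893, 0.278 and 0.326 CPM in WT and at 5.33, 2.49, 1.01 and 5.26 CPM in KO. Its estimate of 2.56 ± 0.79 was the largest of the 41 but rests on 2 to 10 counts per WT library (edgeR adjusted p = 0.166). Cdc45, Gins1, Gins3 and Gins4 overlapped between the genotypes, with estimates from -0.02 to 0.65.

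The origin recognition complex was close to level. Estimates ran from -0.08 (Orc2) to 0.78 (Orc1), and none of its 6 genes reached an unadjusted p under 0.05. Orc1, the largest subunit, had 14, 0 and 3 counts in WT, or 1.25, 0 and 0.489 CPM, and 1.61, 0.888, 0.606 and 1.503 CPM in KO. The count of 0 in WT replicate 3 allows up to 0.278 CPM (3 counts), below every KO library. WT replicate 1 lay above KO replicates 2 and 3, and with this spread the difference did not pass (0.78 ± 0.99, edgeR adjusted p = 0.824). Orc5 was at 3.39, 3.24 and 4.08 CPM in WT and at 5.33, 9.33, 2.02 and 4.13 CPM in KO, and its estimate of 0.34 ± 0.46 turned to -0.017 without KO replicate 2. Orc4 was at 39.8 to 54.6 CPM in WT and 42.9 to 62.4 CPM in KO, so the ranges overlapped.

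Cdt1 and its inhibitor had estimates of opposite sign, and neither passed the test. Cdt1, which loads MCM rings, was at 72.5, 93.4 and 61.8 CPM in WT and at 63.5, 33.3, 57.1 and 69.1 CPM in KO (-0.61 ± 0.29, edgeR adjusted p = 0.441). KO replicates 2 and 3 lay below every WT library, and KO replicates 1 and 5 within the WT range. Gmnn was at 0.625, 1.02 and 0.979 CPM in WT and at 1.69, 2.93, 2.22 and 1.503 CPM in KO, with no overlap (1.08 ± 0.63, edgeR adjusted p = 0.54). The ratio of Cdt1 to Gmnn per kilobase of exon was 54.1, 42.8 and 29.5 in WT and 17.5, 5.30, 11.98 and 21.5 in KO, so every KO ratio was below every WT ratio. In anagen the ratio was 4.57, 3.97 and 13.7 in WT and 3.02 and 4.66 in KO. Gmnn had only 4 to 33 counts in the early telogen libraries, which limits the precision of these ratios. Cdc6 was low in both genotypes, at 0.446 to 1.95 CPM in WT and 0.338 to 2.12 CPM in KO.

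Pcna, the clamp, was the most abundant gene of the set per kilobase of exon in all 4 groups and did not separate the genotypes. It was at 273, 293 and 266 CPM in WT and at 285, 234, 227 and 377 CPM in KO, where the WT libraries lay inside the KO range (-0.15 ± 0.23, edgeR adjusted p = 0.865). The clamp loader genes had estimates from 0.17 (Rfc3) to 0.66 (Rfc5) and none reached an unadjusted p under 0.05. Rfc2 was at 13.4, 10.6 and 13.7 CPM in WT and at 19.03, 30.1, 10.8 and 24.4 CPM in KO, with KO replicate 3 inside the WT range. Rfc5 was at 3.21, 2.78 and 5.06 CPM in WT and at 3.89, 11.4, 4.35 and 7.14 CPM in KO, highest in KO replicate 2.

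Of primase and RPA, only Prim2, the large primase subunit, reached an unadjusted p under 0.05. It was at 6.34, 4.91 and 4.89 CPM in WT and at 9.30, 12.8, 9.90 and 9.02 CPM in KO, without overlap (0.75 ± 0.29, edgeR adjusted p = 0.304). Rpa3, the smallest RPA subunit, was at 1.34, 1.21 and 2.61 CPM in WT and at 2.79, 6.93, 2.12 and 5.26 CPM in KO, where KO replicate 3 fell within the WT range (1.11 ± 0.56, edgeR adjusted p = 0.457). Prim1, Rpa1 and Rpa2 had estimates from 0.11 to 0.36.

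Fen1, the flap nuclease, was at 4.02, 2.04 and 1.63 CPM in WT and at 5.92, 8.80, 5.46 and 8.64 CPM in KO, with no overlap (1.28 ± 0.42, edgeR adjusted p = 0.202). Lig1, the replicative ligase, was at 11.6, 7.32 and 7.83 CPM in WT and at 21.99, 27.1, 11.3 and 19.2 CPM in KO, where KO replicate 3 lay just under the highest WT library (0.96 ± 0.28, edgeR adjusted p = 0.148). Both had an unadjusted p under 0.05.

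All 4 nucleotide supply genes separated the genotypes with every KO library higher, although none passed after adjustment. Tk1, the thymidine kinase of dividing cells, was at 1.34, 1.95 and 1.96 CPM in WT and at 2.28, 7.37, 3.64 and 7.51 CPM in KO (1.34 ± 0.53, edgeR adjusted p = 0.316). Tyms, thymidylate synthase, was at 7.14, 3.52 and 8.32 CPM in WT and at 11.7, 13.9, 9.70 and 18.8 CPM in KO (0.92 ± 0.35, edgeR adjusted p = 0.285). Rrm2, the small subunit of ribonucleotide reductase, was at 59.4, 69.5 and 61.7 CPM in WT and at 92.2, 82.0, 78.3 and 109.7 CPM in KO. Its difference was smaller on the log2 scale (0.34 ± 0.20), as was that of the large subunit Rrm1 (0.49 ± 0.20).

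All 3 chromatin genes had estimates above 0 and an unadjusted p under 0.05. Uhrf1, which recognises hemimethylated DNA, was at 11.7, 8.71 and 11.9 CPM in WT and at 16.7, 26.6, 13.8 and 24.4 CPM in KO, without overlap (0.73 ± 0.26, edgeR adjusted p = 0.253). Chaf1a, the large subunit of the CAF-1 histone chaperone, was at 6.43, 2.60 and 3.91 CPM in WT and at 5.50, 13.9, 7.07 and 10.9 CPM in KO (0.92 ± 0.40, edgeR adjusted p = 0.38). Chaf1b was at 2.77, 3.80 and 2.61 CPM in WT and at 7.02, 7.02, 3.74 and 9.02 CPM in KO (0.91 ± 0.42, edgeR adjusted p = 0.407). The lowest KO library overlapped WT for both CAF-1 subunits.

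Within the KO group the libraries were not alike. KO replicate 2, the library with high epidermal and fibroblast marker sums, was the highest of the 4 for 25 of the 41 genes, and KO replicate 3 was the lowest for 22. Among WT libraries, replicates 1, 3 and 4 were highest for 14, 11 and 16 genes. The mean of log2(CPM + 0.5) over the 41 genes was 2.96, 2.76 and 2.89 in WT and 3.36, 3.89, 3.19 and 3.72 in KO, so the genotypes did not overlap on this mean.

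**Figure D2:**
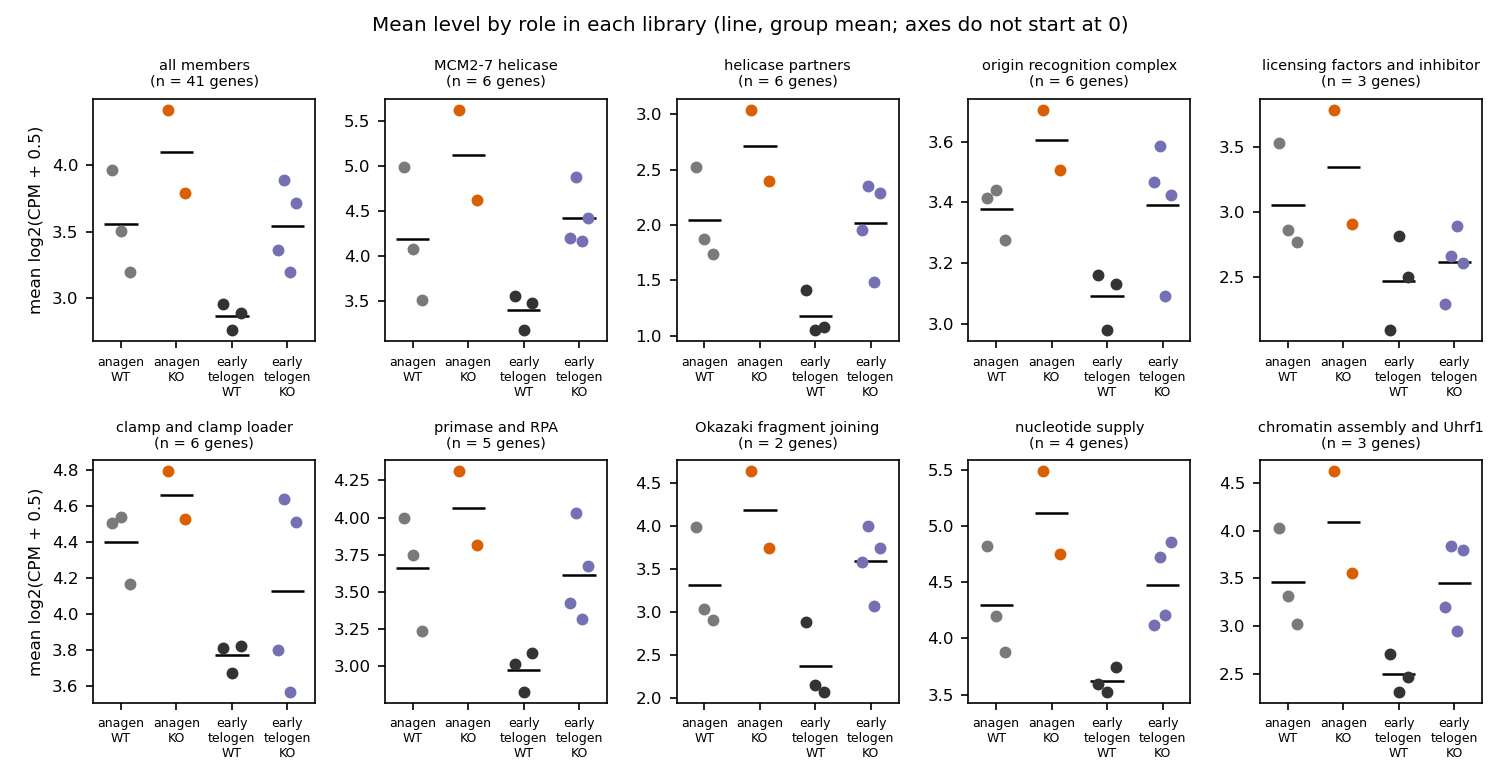
Mean of log2(CPM + 0.5) over the genes of each role (y axes, which do not start at 0), with 1 point per library and a line for the group mean. For the MCM ring every early telogen KO library lies above every early telogen WT library, whereas for the clamp and its loader and for licensing factors the genotypes overlap.

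In anagen no replication gene passed the test between KO and WT, and none of 14409 genes tested did (0% higher and 0% lower). Foxc1 itself, with a log2 fold change of -8.19 ± 0.81 and no overlap, missed the threshold (edgeR adjusted p = 0.0522), so a count of 0 here is not a sign that levels were equal. At an unadjusted p under 0.05 edgeR gave 2 of the 41 higher and none lower, against 3.39% and 6.72% of all genes, and DESeq2 called none of the 41, with 89 of all genes higher and 418 lower. The unadjusted count of 2 depended on single libraries. It was 11 without WT P29 (4.87% of all genes), 5 without KO P31 (2.59%), and 0 without KO P29 (2.75%) or without WT P31 (4.39%). The estimate was above 0 for 37 of the 41 (51.9% of all genes), with a median log2 fold change of 0.46 against 0.02 over all genes. For 10 of the 41 the KO libraries lay above all WT libraries (18.5% of all genes). The spread between libraries of a genotype was wide, and the P29 libraries were high in both genotypes. WT P29 was the highest WT library for 33 of the 41 genes and WT P31 the lowest for 32, and KO P29 was above KO P31 for 35.

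Both genes that reached an unadjusted p under 0.05 had KO levels near each other. In the order used for anagen (WT P29, P30 and P31, then KO P29 and P31), Rfc2 was at 26.2, 25.7 and 23.9 CPM in WT and 39.2 and 36.4 CPM in KO (0.49 ± 0.18, edgeR adjusted p = 0.411). Rrm2 was at 48.7, 22.1 and 41.7 CPM in WT and 69.0 and 67.1 CPM in KO (0.77 ± 0.32, edgeR adjusted p = 0.483). Rpa3 also separated the genotypes, at 8.99, 7.46 and 5.62 CPM in WT and 10.6 and 11.96 CPM in KO (0.52 ± 0.29).

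The MCM genes had the largest estimates by role in anagen, with a median of 0.84. In each, the P29 library was the highest of its genotype. Day and library coincide within a genotype, so they cannot be told apart. Mcm5 was at 41.8, 18.7 and 11.1 CPM in WT and 68.4 and 26.1 CPM in KO, so the KO P31 library lay between WT P29 and WT P30 (0.90 ± 0.61, edgeR adjusted p = 0.682). Mcm2 was at 29.8, 14.4 and 9.71 CPM in WT and 45.0 and 20.7 CPM in KO, with the same overlap (0.78 ± 0.53). Mcm4 did not overlap, at 39.7, 33.4 and 24.9 CPM in WT and 51.5 and 40.1 CPM in KO (0.40 ± 0.25). Mki67 was at 81.3, 26.1 and 12.5 CPM in WT and 156 and 33.0 CPM in KO (1.16 ± 0.87, edgeR adjusted p = 0.72).

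Some stem cell markers separated the genotypes in anagen too, and their part in the differences was not tested. Of the 10, Krt15, Nfatc1, Cd34 and Lhx2 had both KO libraries below all WT libraries and an unadjusted p under 0.05, and none passed after adjustment (smallest adjusted p = 0.156 by edgeR). Krt15 was at 4641, 9289 and 7078 CPM in WT and 1254 and 2192 CPM in KO. Nfatc1 was at 160, 188 and 234 CPM in WT and 99.3 and 60.0 CPM in KO, and Cd34 at 352, 757 and 547 CPM in WT and 277 and 230 CPM in KO. The summed level of the list, mostly Krt5 and Krt14, was 23026 to 30695 CPM in WT and 21842 and 25348 CPM in KO. The sums therefore overlapped, and none of the 10 was at 0. All 6 melanocyte markers had estimates below 0 in anagen, with 2 (Tyr and Mitf) at an unadjusted p under 0.05.

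Compared within a titled day, 39 of the 41 genes were higher in KO than in WT at P29 and 38 at P31, where 57.4% and 58.3% of all genes tested were. Each day has 1 library per genotype. KO P31 was nevertheless within the WT range for 27 of the 41 genes, and it exceeded WT P29 for 12. The WT library titled P31 is the one with an age label of 43 days. Leaving out KO P29 lowered the median log2 fold change from 0.46 to 0.10, and 26 of the 41 estimates were then above 0. The labels give both KO libraries as female, while 2 of the 3 WT libraries are given as male. With sex as a covariate the median was 0.12 and 31 estimates were above 0. Reads placed at more than 1 position made up 31.1% and 32.8% of all tallied reads in KO and 20.1% to 25.8% in WT, and their part in the differences was not tested.

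For 34 of the 41 genes the estimate was above 0 in both stages, compared with 32.4% of the 11926 genes tested in both. The stages share no libraries. The difference between the KO effect in early telogen and in anagen was tested over all 12 libraries. No replication gene passed in either direction (0.129% of 13193 genes higher and 0.0152% lower). On simulated counts this test recovered 13% of genes changed by 1 on the log2 scale, against 39% to 54% in the other comparisons. The simulation set the same spread for every gene, not the spread of these genes, so its rates need not hold for them. The lack of calls therefore does not show equal effects. No gene of the 41 reached an unadjusted p under 0.05 in this test by edgeR (4.54% of all genes higher and 1.83% lower), and DESeq2 called none. The median difference was 0.08 on the log2 scale against 0.04 over all genes, and 25 of the 41 were above 0 (53.7% of all genes). Gins2 had the smallest p, with a KO effect larger by 0.84 ± 0.45 in early telogen (edgeR adjusted p = 0.836). Without TMM 32 of the 41 differences were above 0. The sign of the median was not stable, and it was -0.19 without anagen KO P31 and -0.074 without anagen WT P29.

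**Figure D3:**
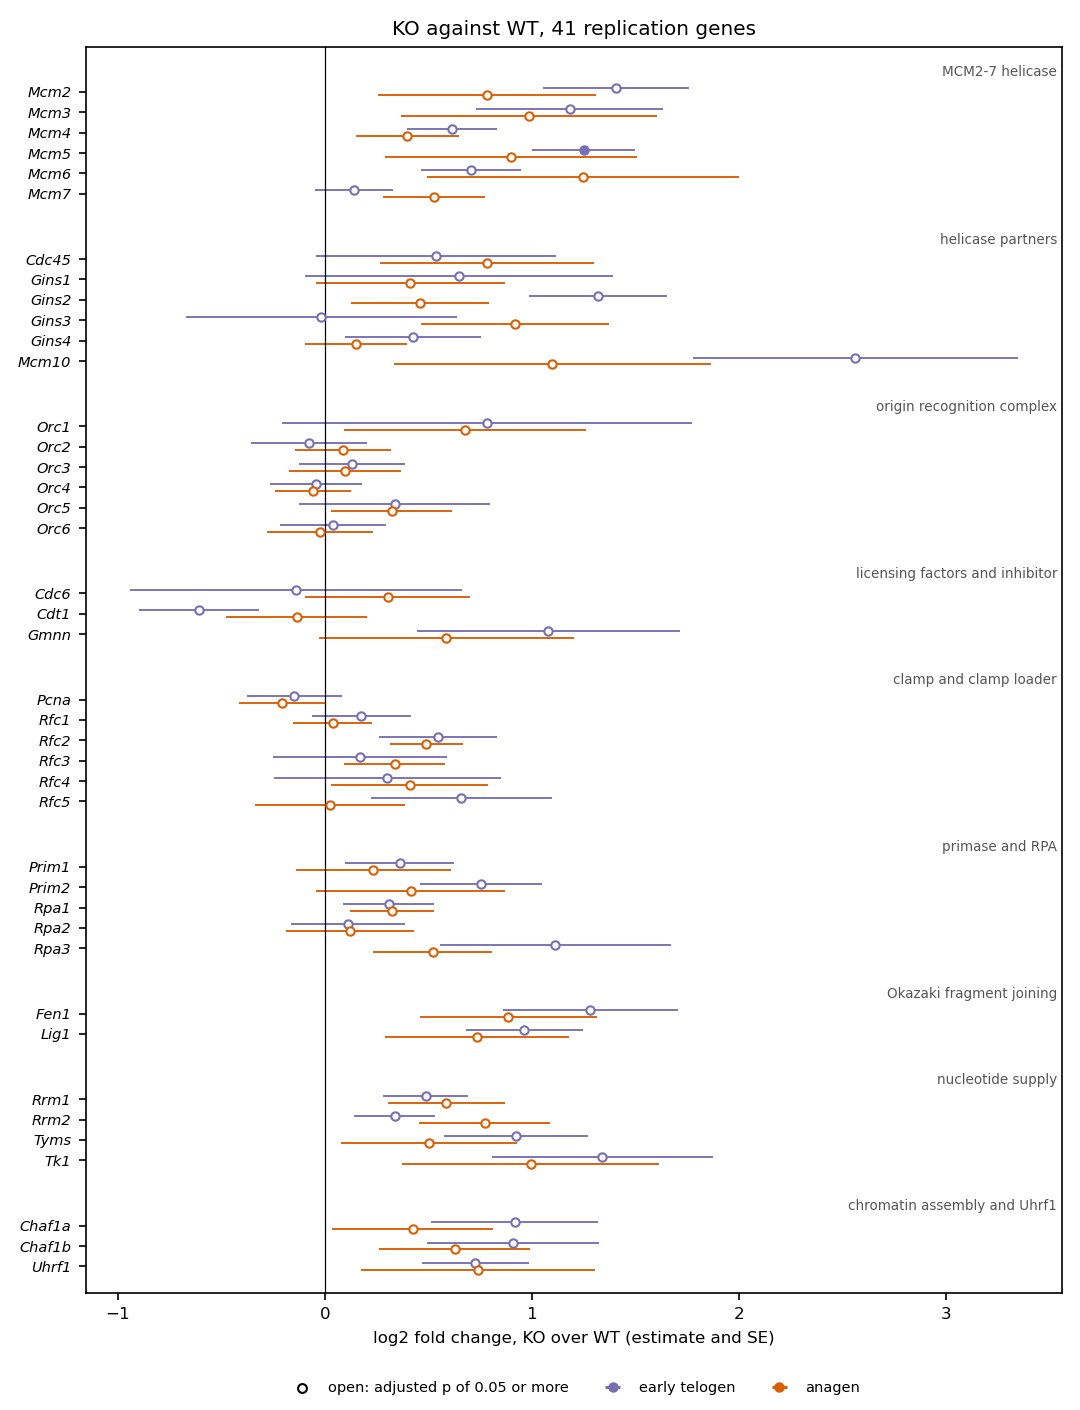
Log2 fold change of KO over WT (x axis) for the 41 replication genes grouped by role (y axis), with points for the edgeR estimate and bars for its SE, in early telogen (purple) and anagen (orange); filled points have an adjusted p under 0.05. Mcm5 in early telogen is the only filled point, and 35 early telogen and 37 anagen estimates lie to the right of 0.

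The next comparison asked how these RNAs differed between the hair cycle stages in WT. Where the machinery changed, it was mostly lower in early telogen, from the MCM ring to the clamp loader, RPA and thymidine kinase, while the clamp Pcna and the reductase subunit Rrm2 were higher. Of the 41, 12 fell and 2 rose, where 15.9% of 12718 genes fell and 13.6% rose. The libraries did not overlap, with early telogen lower, for 22 of the 41 (29.9% of all genes) and higher for 2 (18%). The estimate was below 0 for 34 of the 41 and above 0 for 7 (45.4% of all genes were above 0). The median was -0.74 against -0.10 over all genes. Each stage was counted in its own table, at its own depth and age, so stage, table and depth cannot be told apart. Without TMM the median over all genes was -0.23, the numbers of all genes that rose and fell went from 1724 and 2024 to 1293 and 2450, and the estimates of Orc2 and Rfc1 turned from slightly positive to slightly negative.

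Tk1 fell most. It was at 21.3, 9.71 and 5.30 CPM in anagen WT and at 1.34, 1.95 and 1.96 CPM in early telogen WT, and its estimate was -2.71 ± 0.54 (edgeR adjusted p = 0.00686). Rpa3 was at 8.99, 7.46 and 5.62 CPM in anagen and fell by 2.06 ± 0.43 in log2 units (adjusted p = 0.00724). Gins2 was at 14.4, 8.66 and 9.14 CPM in anagen and fell by 1.59 ± 0.32 (edgeR adjusted p = 0.00623). Rfc2 fell by 0.93 ± 0.19 from its 23.9 to 26.2 CPM in anagen (edgeR adjusted p = 0.00703). Rpa3 lies on chromosome 6 (8255936 to 8259173, minus strand), Rfc2 on chromosome 5 (134581366 to 134601805, plus strand) and Tk1 on chromosome 11 (117815526 to 117826092, minus strand). These 4 genes, which belong to 4 different roles, passed in all 10 alternative fits, and the other 10 genes called in this comparison each lost the call in at least 1.

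The other genes that fell covered most of the remaining roles. In the MCM ring Mcm2 fell by 1.69 ± 0.43, Mcm5 by 1.55 ± 0.46 and Mcm4 by 0.74 ± 0.22 on the log2 scale, while Mcm7 and Mcm6 did not pass, with estimates of -0.29 ± 0.20 and -0.19 ± 0.60. Gmnn, at 6.39, 3.82 and 1.79 CPM in anagen WT, fell by 2.11 ± 0.60. The clamp loader genes Rfc4, at 9.71, 9.84 and 5.46 CPM in anagen WT, and Rfc5, at 11.05, 12.9 and 7.57 CPM, fell by 1.45 ± 0.36 and 1.45 ± 0.35. In early telogen WT Rfc4 was at 2.86, 2.41 and 3.43 CPM. Rpa1 fell by 0.65 ± 0.21, from 36.2, 33.7 and 28.4 CPM to 16.3, 20.1 and 22.3 CPM. Chaf1b, at 9.23, 6.29 and 6.32 CPM in anagen WT, fell by 1.14 ± 0.36. The edgeR adjusted p of these 8 genes lay between 0.0136 and 0.0394.

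Pcna and Rrm2 rose in early telogen WT. Pcna was at 216, 211 and 163 CPM in anagen and at 273, 293 and 266 CPM in early telogen (0.59 ± 0.18, edgeR adjusted p = 0.032). Rrm2 was at 48.7, 22.1 and 41.7 CPM in anagen and at 59.4, 69.5 and 61.7 CPM in early telogen (0.86 ± 0.27, edgeR adjusted p = 0.0392). Pcna lies on chromosome 2 (132249162 to 132253314, minus strand) and Rrm2 on chromosome 12 (24708241 to 24714146, plus strand). The stages did not overlap for either gene. Both calls were lost without TMM (adjusted p = 0.0641 for Pcna and 0.0767 for Rrm2), with estimates still above 0. Each call was also lost without any 1 of the early telogen WT libraries (adjusted p from 0.0506 to 0.128). The same held without anagen WT P31 for both genes and without WT P30 for Rrm2 (adjusted p from 0.0518 to 0.064). Cdt1 had an estimate of 0.73 ± 0.26 in the same direction and did not pass (edgeR adjusted p = 0.0638). It was called higher in 3 of the 10 alternative fits: DESeq2, no filter on low counts, and without anagen WT P29. Its anagen WT levels of 62.6, 32.6 and 52.5 CPM overlapped those of early telogen WT.

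Per kilobase of exon these 3 genes were also the most abundant of the set in WT at both stages. In early telogen WT Pcna stood at 116 ± 5.78 CPM per kilobase (SD, n = 3), Cdt1 at 24.2 ± 5.12 and Rrm2 at 22.9 ± 1.91, and the last 2 did not differ beyond their spread. In the same libraries Mcm4 and Mcm7 were at 5.15 ± 0.58 and 5.40 ± 0.12 CPM per kilobase. Mcm10 and Orc1 were the least abundant at 0.0649 ± 0.0444 and 0.167 ± 0.181. The ratio of Pcna to Mcm7 was 10.3, 13.7 and 11.8 in anagen WT and 20.9, 23.2 and 20.2 in early telogen WT.

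The number of genes that fell moved with the libraries used. It was 5 without anagen WT P29, where 1410 of all genes fell, and 6 without WT P30, where 1435 did. It was 7 without early telogen WT replicate 1, 3 or 4 in turn, where 1546, 1275 and 1257 of all genes fell. Without anagen WT P31 it was 14, with 1699 of all genes. The main fit had 12, with 2024 of all genes. Tk1 fell by 2.01 on the log2 scale without WT P29, the library with the highest replication gene levels in anagen WT.

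**Figure D4:**
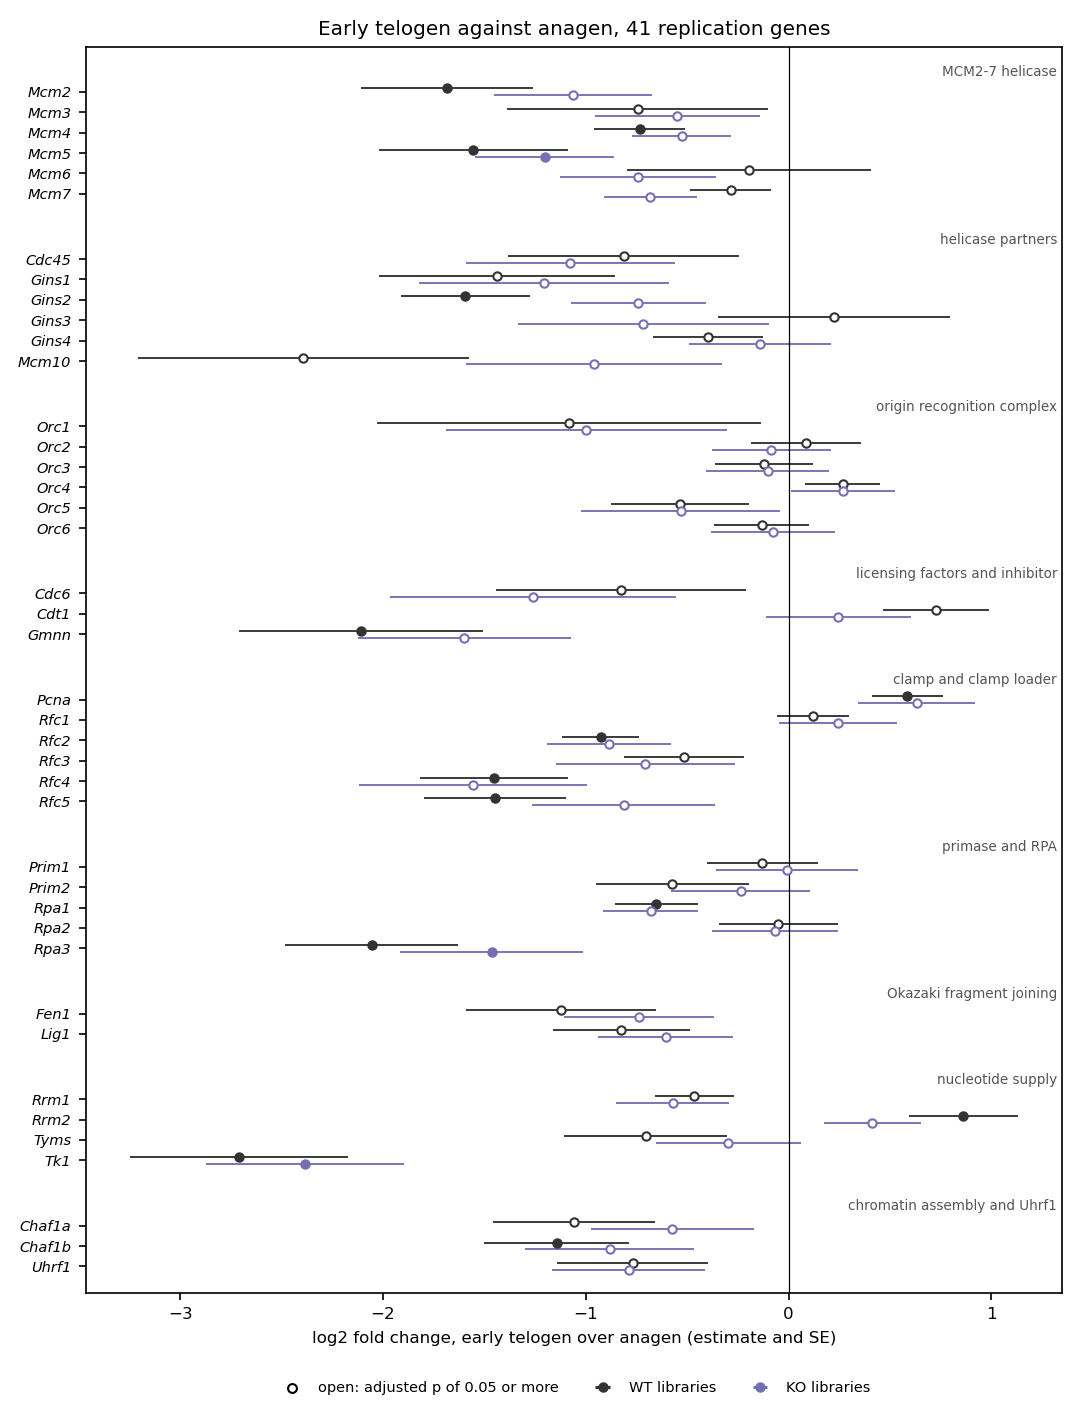
Log2 fold change of early telogen over anagen (x axis) for the 41 replication genes grouped by role (y axis), with points for the edgeR estimate and bars for its SE, in WT (black) and KO (purple); filled points have an adjusted p under 0.05. Most points lie to the left of 0, with Pcna, Rrm2 and Cdt1 to the right in both genotypes.

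In KO the same stage comparison had 3 genes that fell (Mcm5, Rpa3 and Tk1) and none that rose, where 12% of 12771 genes fell and 10.2% rose. At an unadjusted p under 0.05, 10 of the 41 were lower (18.9% of all genes) and none higher (17.9%) by edgeR. DESeq2 called 5 lower and none higher, where 1623 of all genes fell and 1891 rose. The median was -0.68 against -0.03 over all genes. Of the 41 estimates 36 were below 0 and 5 above 0 (48.7% of all genes were above 0). Libraries did not overlap, with early telogen lower, for 8 of the 41 (23.5% of all genes). Tk1 was at 36.7 and 14.6 CPM in anagen KO and at 2.28, 7.37, 3.64 and 7.51 CPM in early telogen KO (-2.38 ± 0.49, edgeR adjusted p = 0.00713). Rpa3 fell from 10.6 and 11.96 CPM by 1.46 ± 0.45 in log2 units (adjusted p = 0.0404). Mcm5 fell by 1.203 ± 0.34 (edgeR adjusted p = 0.0298), although KO replicate 2 at 28.1 CPM was above anagen KO P31 at 26.1 CPM. Pcna and Rrm2 again had estimates above 0 (0.63 ± 0.29 and 0.41 ± 0.24), without passing.

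The KO stage calls depended on single libraries. Without anagen KO P29 no gene of the 41 passed by edgeR (adjusted p = 0.09795 for Tk1). Without anagen KO P31, which left 1 anagen KO library, 5 of the 41 estimates were above 0. Without early telogen KO replicate 2, 9 of the 41 fell and 1 (Pcna) rose, where 1869 of all genes fell and 1771 rose. Without early telogen KO replicate 1, 3 or 5 in turn only Tk1 fell, where 1095, 1173 and 1148 of all genes fell. Without a filter on low counts 11 of the 41 fell and 2136 of all genes, against 1534 of all genes in the main fit.

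Early telogen KO levels were set beside anagen WT levels as a description, since genotype, stage and table all differ between them. For 21 of the 41 genes the mean of early telogen KO was above the mean of anagen WT, and the share over all genes was not computed. Mcm5 averaged 20.7 ± 5.13 CPM in early telogen KO (SD, n = 4) and 23.8 ± 15.98 in anagen WT (SD, n = 3), and Mcm2 averaged 16.2 ± 8.31 and 17.9 ± 10.5, so the spreads covered each other. Tk1 averaged 5.202 ± 2.65 and 12.1 ± 8.28 CPM.

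Of 57 other replication genes (origin firing, fork, Okazaki processing, clamp loading, nucleotide metabolism, chromatin, checkpoint and polymerases), 45 were tested in early telogen KO against WT and none passed. By edgeR 12 were higher and 1 lower at an unadjusted p under 0.05, where 6.46% of all genes were higher and 5.58% lower. The 3 of smallest p were Chek1, Ticrr and Timeless. Chek1, the S phase checkpoint kinase, was at 0.179, 0.463 and 0.326 CPM in WT and at 3.38, 3.82, 2.02 and 3.01 CPM in KO (2.997 ± 0.70, edgeR adjusted p = 0.0689). Ticrr, which helps origins to fire, was at 0.357, 0 and 0.163 CPM in WT and at 2.88, 1.87, 1.31 and 3.38 CPM in KO (3.47 ± 0.95, edgeR adjusted p = 0.12). Timeless, a fork protection factor, was at 1.61, 0.278 and 2.77 CPM in WT and at 7.44, 10.4, 5.36 and 4.51 CPM in KO (2.05 ± 0.59, edgeR adjusted p = 0.141). The gene that was lower, Top1, relaxes supercoils ahead of forks and of transcription, with 983 to 1130 CPM in WT and 575 to 868 CPM in KO (-0.58 ± 0.24). In anagen all 57 were tested and none passed, with Nasp and Wee1 lower at an unadjusted p under 0.05 and none higher (6.72% and 3.39% of all genes). The 9 polymerase genes of this list were measured in anagen, with estimates from -0.43 (Pole4) to 1.02 (Pole). No row under their names was found among the early telogen counts, so they were not analysed there.

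Between stages in WT, 48 of the listed genes were tested, of which 11 fell and 3 rose, against 15.9% and 13.6% of all genes. Those that rose were Top1, Mcmbp and Nasp. In KO 5 fell and 4 rose (Wee1, Rrm2b, Top1 and Nasp), shares of the 48 no higher than the 12% and 10.2% over all genes. Nasp, a histone chaperone, was at 150, 184 and 152 CPM in anagen WT and at 207, 258 and 229 CPM in early telogen WT.

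The 34 genes with a promoter window were then divided by the presence of an E2F word, as a description with no test. In early telogen the median log2 fold change of KO over WT was 0.44 for the 12 genes with a word and 0.42 for the 22 without. Between stages in WT the medians were -0.63 and -0.68. In anagen KO against WT they were 0.71 and 0.42. Mcm5 and Cdt1, which both have a word, had the highest and the lowest early telogen estimates among the 12, at 1.25 and -0.61.

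Exons of 3 genes overlap another gene on the same strand (Mcm7, Orc5 and Rpa1), and those of 14 overlap a gene on the opposite strand, among them Gins2, Rfc2, Rfc4, Rfc5, Fen1 and Tk1. The strand setting used in counting is not given in the sources used here, so the counts of these genes are uncertain to that extent. Mcm5, Mcm2, Mcm10, Pcna, Rrm2, Cdt1, Gmnn and Rpa3 have no such overlap in the annotation.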

How the data were processed

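The authors deposited raw read counts per gene in 1 table for anagen (38803 genes) and 1 for early telogen (37958 genes after 3 broken lines were left out; 27 names that a spreadsheet had turned into dates were kept apart). Reads were handled with TopHat2 and HTSeq on mm10, per the submitters' processing notes; versions and the strand setting are not given in the sources used here. Summary rows that name no gene were left out of totals.

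CPM was computed over gene rows. Counts were tested with edgeR 4.0.16 in R 4.3.3 (robust quasi-likelihood F-test, TMM, filterByExpr with a minimum count of 10 and a minimum total of 15, Benjamini-Hochberg over all genes tested); SE is the log2 fold change divided by the square root of F. All 41 genes passed the filter in every comparison. Each comparison used only its own groups, except the difference of KO effects, which used all 12 libraries. Stage comparisons used the names shared by both tables. Exon lengths and positions came from GENCODE M21 (GRCm38), in which coordinates are counted from 1. Scripts were tested on simulated data. Figures used matplotlib 3.10.9 in Python 3.11.15. No sample column was left unused.

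The genes, their roles, the 57 other replication genes and the markers were chosen with earlier results of these data known. Full values are given for genes that passed in any comparison and for the 2 of smallest p per role in early telogen KO against WT, and for the 3 of smallest p among the 57 when none passed. Genes named beyond this rule were chosen after their values were seen. Alternatives were DESeq2 1.42.0, DESeq2-type size factors, no TMM, no filter, 1 fit over all libraries, sex as covariate, a replicate block, and libraries left out singly or, in early telogen, KO replicate 2 with WT replicate 3.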

Additional observations from a re-analysis of the deposited data

Results flagged for a closer look

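Gins3, a GINS subunit, was at 2.58 CPM in early telogen KO replicate 2 and at 1.10, 1.01 and 1.13 CPM in KO replicates 1, 3 and 5, so this library lay far from the other 3. It was 1 of 43 genes examined in this way in the only group with 4 libraries, and chance alone sets apart about 1 in 20. The same library had the highest epidermal and fibroblast marker sums, whose part in this value was not tested.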

How the results depend on the processing

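In early telogen KO against WT, 1 gene (Mcm5) of the 41 was called higher by edgeR, where 60 of all genes rose. The count was 4 by DESeq2 (233 of all genes), 2 without the count filter (167) and 2 with sex as covariate (73). It was 0 in 1 fit over all 12 libraries (12) and 0 without KO replicate 2 and WT replicate 3 together (25). Leaving out 1 library gave 0 in each fit (9 to 61 of all genes). The genes' median log2 fold change stayed above 0 in every alternative, from 0.28 to 0.75 in early telogen and from 0.10 to 0.77 in anagen, where no gene of the 41 was called in any alternative. Orc5 in early telogen turned to -0.096 with the replicate block and -0.045 without KO replicate 2 and WT replicate 3, and ran from -0.017 (without KO replicate 2) to 0.60 with 1 library left out. Between stages in WT the count of higher genes (2, where 1724 of all genes rose) was 0 without TMM (1293). With 1 library left out it was 0 to 3 (1055 to 1630 of all genes). That of lower genes (12, where 2024 of all genes fell) was 5 to 14 with 1 library left out (1257 to 1699). In KO the count of lower genes (3, where 1534 of all genes fell) was 5 by DESeq2 (1623) and 11 without the filter (2136). With 1 early telogen library left out it was 1 to 9 (1095 to 1869 of all genes), and that of higher genes (0) was 0 to 1 (984 to 1771). The median difference of KO effects turned to -0.19 without anagen KO P31 and -0.074 without anagen WT P29. The cause of these shifts was not tested. Over the values of named genes under the alternatives, 365 kept direction and side of the threshold, 65 lost a call, 5 gained one and 3 reversed.

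The replicate numbers are not stated to pair samples. In anagen, libraries of the same titled day had correlated deviations (0.48 and 0.40). With 2 KO libraries, the deviations of one mirror those of the other, so these values are not independent. Same-numbered libraries in early telogen had correlations of 0.11 and 0.058, within the -0.142 to 0.135 of unmatched pairs. Each stage had 2 matched pairs, and the replicate block used the titled day in anagen and the number in early telogen. With a replicate block 0 of the 41 genes were called in early telogen and 0 in anagen, and the adjusted p of Mcm5 in early telogen was 0.345. At an unadjusted p under 0.05, 3 were higher and 1 lower in early telogen (4.58% and 4.04% of all genes), and 18 higher and 0 lower in anagen (7.16% and 9.8%), against 2 higher without the block. After adjustment, over all genes 4 rose and 7 fell in early telogen, and 46 rose and 207 fell in anagen. Low counts in early telogen limit the precision for Orc1, Mcm10 and Gmnn, among others.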
